A study of Mus musculus with 24 samples.

Results

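The antigen presentation genes are 9 genes that act in showing peptides to T cells: Cd74, H2-Aa, H2-Ab1, H2-Eb1, B2m, Tap1, Tap2, Tapbp and Ciita. Their members were taken as every probe set to which the platform annotation gives only that gene. Of 45037 probe sets tested, 13 belonged to 6 of the 9 genes, with 1 for Cd74, 3 for H2-Aa, 3 for H2-Ab1, 1 for H2-Eb1, 2 for Tapbp and 3 for Ciita. B2m, Tap1 and Tap2 had no probe set of their own in the annotation used and were not analysed here.

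Transcript levels were measured on 24 Affymetrix arrays, 8 for each of cerebellum, brainstem and liver, with 4 from CAG42 and 4 from WT mice per tissue. CAG42 mice are homozygous for an expanded CAG repeat knocked into the Atxn2 gene, so that the mutant protein is made under the endogenous promoter in every cell that uses this gene, and WT mice are littermates without the insertion, on a background backcrossed to C57BL/6. The labels give tissue, genotype and a replicate number but no age, while the study's text gives 18 months for its groups of 4 animals per genotype. Whether a replicate number marks the same mouse in several tissues is not stated in the labels, nor that each array is a mouse of its own, and p-values therefore measure only the spread between these samples, which may in part be technical. Values are log2 signals after RMA, which subtracts background, forces every array onto a common distribution and combines the probes of each set into 1 value. They set one probe set's level on an array against its own level on another array, and not against that of another probe set.

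MHC class II molecules are pairs of an alpha and a beta chain that carry peptides from endosomes to the surface of professional antigen presenting cells, such as B cells, dendritic cells and activated macrophages. In mice, H2-Aa and H2-Ab1 encode the I-A pair and H2-Eb1 the I-E beta chain, while Cd74, the invariant chain, fills the peptide groove during assembly and escorts the pair to the endosome. Ciita is the co-activator that switches class II genes on, by binding to factors assembled on a conserved promoter module of S, X and Y boxes. Class I molecules present peptides from the cytosol on nearly all cells, with B2m as their light chain, Tap1 and Tap2 as the peptide transporter and Tapbp (tapasin) as the bridge between them. Neurons show little of either class at rest, and microglia of the healthy brain carry low class II.

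Promoter sequences are shown because both class II members whose promoter was searched, H2-Aa and H2-Eb1, hold the same arrangement of bases there. Of the 9 genes, 5 had a promoter that was searched in the RefSeq table used (GRCm38.p6), which holds 250 bases before to 50 bases after each start. The promoters of Cd74, H2-Ab1, Ciita and Tap2 were not searched. The windows were searched for GCAAC, the core of the X box, and for TGATTGG, the core of the Y box with its CCAAT element on the other strand, on both strands. GCAAC followed on the same strand by TGATTGG, with 20 to 40 bases from start to start, was found in 2 of these 5, H2-Aa and H2-Eb1, and in none of B2m, Tap1 and Tapbp. Over all 32851 promoters, 35.2% held GCAAC, 7.82% held TGATTGG and 0.204% held the pair in this order. The spacing limits were set with these promoters in view, and the motifs share no bases. In the list of 12 other class II pathway genes described further on, 10 had a promoter, and the pair stood in 2 of them, H2-Oa and H2-Ob, chains of the modulator of class II peptide loading. A match is a description of letters and not a site of binding. The 120 bases before each start follow, 5′ to 3′ on the strand of the gene, with both cores in capitals. H2-Aa lies at chr17:34287824-34287943 on the minus strand. The other 3 lie on the plus strand, H2-Eb1 at chr17:34305747-34305866, H2-Oa at chr17:34092259-34092378 and H2-Ob at chr17:34238785-34238904.
H2-Aa: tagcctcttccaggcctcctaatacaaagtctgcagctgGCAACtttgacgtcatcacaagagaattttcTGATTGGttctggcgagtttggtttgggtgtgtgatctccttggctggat
H2-Eb1: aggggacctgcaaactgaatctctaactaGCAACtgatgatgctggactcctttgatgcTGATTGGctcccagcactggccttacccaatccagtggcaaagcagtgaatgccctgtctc
H2-Oa: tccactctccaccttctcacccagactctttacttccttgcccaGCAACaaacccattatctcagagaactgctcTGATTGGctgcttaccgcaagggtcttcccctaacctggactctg
H2-Ob: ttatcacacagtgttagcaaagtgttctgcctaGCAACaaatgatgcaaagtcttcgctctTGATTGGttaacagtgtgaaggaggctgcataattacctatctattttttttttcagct

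Before the comparisons, arrays that stand apart are named. The mean correlation of an array with the others of its group was 0.993 to 0.995 in both brain tissues and 0.987 to 0.991 in CAG42 liver, against 0.965 to 0.983 in WT liver, where replicate 1 (0.965) and replicate 3 (0.975) were the lowest. Results in liver are therefore also given without these 2 arrays. The tissues carried their defining markers: the mean of the hepatocyte markers was 12.97 to 13.14 on CAG42 and 13.03 to 13.19 on WT liver arrays, and at most 5.43 on any brain array. No scan batch could be examined.

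All 4 class II genes measured were highest in liver, lower in brainstem and lowest in cerebellum, in both genotypes. In WT mice the mean of Cd74 reached 4.72 ± 0.31 in the cerebellum, 5.98 ± 0.73 in brainstem and 8.38 ± 0.96 in liver tissue (SD, n = 4 each). The test was limma's moderated test in 1 model over all arrays, with Benjamini-Hochberg adjustment over all probe sets and a call at an adjusted p under 0.05. Of the 13 probe sets, 8 were called lower in WT cerebellum than in WT brainstem, 12 lower in WT cerebellum than in WT liver, and 12 lower in WT brainstem than in WT liver, and 0 were called higher. Over all probe sets, 28.2%, 37.3% and 34.3% were called lower in these 3 comparisons and 18.8%, 44.4% and 46.5% higher. The median difference of the 13 probe sets was −0.64, −3.43 and −2.30 on the log2 scale, beside −0.07, 0.08 and 0.16 for all probe sets. In such bulk tissue, fewer cells of a type and less RNA per cell cannot be told apart.

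**Figure D1:**
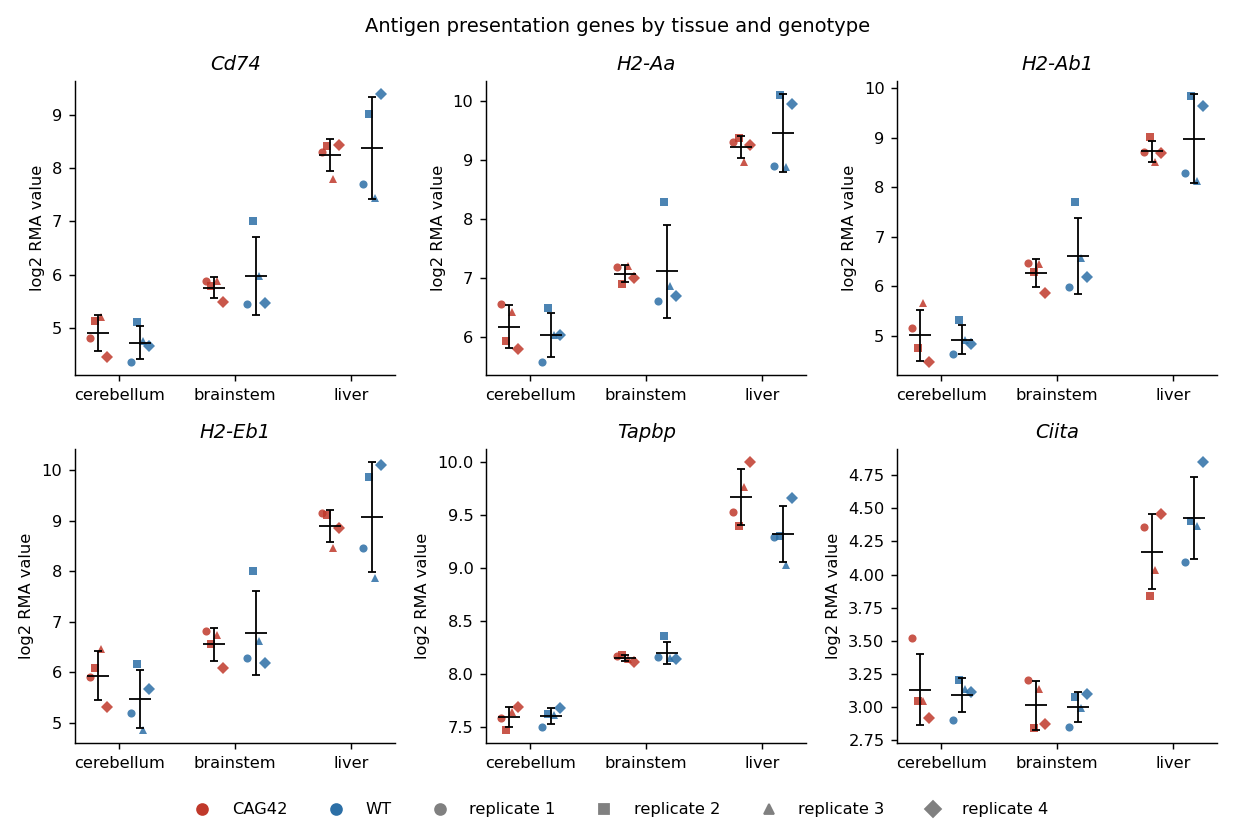
Log2 RMA values of the brightest probe set of each measured gene, by tissue, with CAG42 arrays in red left of WT arrays in blue, a symbol for each replicate number, and the mean and SD of the 4 arrays in black. The 4 class II genes climbed from cerebellum over brainstem to liver, WT brainstem replicate 2 lay above the other brainstem arrays, and WT liver split into 2 high and 2 low arrays.

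Cd74 was 4.81, 5.14, 5.21 and 4.46 on the CAG42 cerebellum arrays, replicates 1 to 4, and 4.36, 5.12, 4.75 and 4.67 on the WT cerebellum arrays. In brainstem it was 5.89, 5.79, 5.88 and 5.48 on CAG42 arrays and 5.45, 7.01, 5.98 and 5.47 on WT arrays. In liver it was 8.29, 8.42, 7.80 and 8.44 on CAG42 arrays and 7.69, 9.01, 7.43 and 9.38 on WT arrays. No array of one tissue reached into the next, and within liver the WT arrays enclosed the CAG42 arrays. Between WT tissues Cd74 was lower in cerebellum than in brainstem by a log2 difference of −1.26 (SE 0.35, adjusted p = 0.00464, limma), that is 2.39-fold. The difference was −3.66 for WT cerebellum minus WT liver (adjusted p = 1.21e-09) and −2.40 for WT brainstem minus WT liver (adjusted p = 1.22e-06), with the same SE.

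H2-Aa, the I-A alpha chain, is given by the brightest of its 3 probe sets. It was 6.55, 5.93, 6.41 and 5.79 on CAG42 and 5.57, 6.49, 6.02 and 6.03 on WT cerebellum arrays. In brainstem it was 7.17, 6.90, 7.20 and 7.0 on CAG42 and 6.61, 8.28, 6.86 and 6.69 on WT arrays. In liver it was 9.29, 9.36, 8.96 and 9.25 on CAG42 and 8.90, 10.09, 8.87 and 9.95 on WT arrays. The tissues did not overlap, while genotypes overlapped in each tissue. For WT arrays the log2 difference was −1.08 (SE 0.31, adjusted p = 0.00531) for cerebellum minus brainstem, −3.43 (adjusted p = 3.75e-10) for cerebellum minus liver and −2.34 (adjusted p = 2.42e-07) for brainstem minus liver, by limma. Another H2-Aa probe set, 1443783_PM_x_at, was dim in the brain, with means of 2.73 in WT cerebellum and 2.85 in WT brainstem, and did not separate these tissues (−0.12, SE 0.23, adjusted p = 0.708).

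H2-Ab1, the I-A beta chain, was 5.15, 4.76, 5.67 and 4.47 on CAG42 and 4.64, 5.33, 4.91 and 4.82 on WT cerebellum arrays. The brainstem values were 6.48, 6.30, 6.44 and 5.86 on CAG42 and 5.98, 7.71, 6.58 and 6.18 on WT arrays. The liver values were 8.71, 9.01, 8.50 and 8.71 on CAG42 and 8.29, 9.86, 8.12 and 9.65 on WT arrays. WT brainstem replicate 2 was the only brainstem array above 7. The log2 differences between WT tissues were −1.69 (SE 0.36, adjusted p = 0.000387) for cerebellum minus brainstem, −4.06 (adjusted p = 2.79e-10) for cerebellum minus liver and −2.37 (adjusted p = 2.05e-06) for brainstem minus liver. Over the 8 class II probe sets, WT cerebellum minus WT liver ran from −4.83 to −1.73. Probe sets with names ending in x_at, s_at and a_at can hold probes shared with related sequences or several transcripts, and 8 of the 13 member probe sets are of these kinds.

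H2-Eb1, the I-E beta chain, was 5.90, 6.07, 6.45 and 5.30 on CAG42 and 5.19, 6.17, 4.86 and 5.67 on WT cerebellum arrays. Brainstem arrays gave 6.82, 6.56, 6.73 and 6.09 on CAG42 and 6.29, 8.0, 6.62 and 6.19 on WT arrays. Liver arrays gave 9.15, 9.12, 8.45 and 8.85 on CAG42 and 8.45, 9.87, 7.86 and 10.09 on WT arrays. Here WT brainstem replicate 2 lay above the lowest WT liver array, and CAG42 cerebellum overlapped CAG42 brainstem. The difference was −1.30 (SE 0.42, adjusted p = 0.0138) for WT cerebellum minus WT brainstem, −3.60 (adjusted p = 4.07e-08) for WT cerebellum minus WT liver and −2.30 (adjusted p = 2.97e-05) for WT brainstem minus WT liver. The call between the brain tissues was lost on CAG42 arrays (−0.62, adjusted p = 0.25), and also without WT brainstem replicate 2 (−0.89, adjusted p = 0.0811) and without WT cerebellum replicate 3 (−1.09, adjusted p = 0.0544).

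Tapbp, the tapasin gene of class I loading, varied little between the brain arrays of a group. Its brighter probe set was 7.59, 7.48, 7.64 and 7.69 on CAG42 and 7.5, 7.63, 7.62 and 7.69 on WT cerebellum arrays. Brainstem arrays gave 8.17, 8.19, 8.15 and 8.11 on CAG42 and 8.16, 8.36, 8.15 and 8.14 on WT arrays. Liver arrays gave 9.53, 9.39, 9.76 and 9.99 on CAG42 and 9.29, 9.30, 9.03 and 9.66 on WT arrays. The 3 tissues were fully apart, in the same order as for class II. The log2 differences were −0.59 (SE 0.12, adjusted p = 0.000179), −1.71 (adjusted p = 2.49e-12) and −1.12 (adjusted p = 6.25e-09) for WT cerebellum minus brainstem, cerebellum minus liver and brainstem minus liver. The dimmer Tapbp probe set, 1450378_PM_at, was called lower than liver in both brain tissues, but between WT cerebellum and WT brainstem its difference was 0.15 (SE 0.24, adjusted p = 0.644).

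Ciita was near the low end of the scale in the brain. Its brightest probe set was 3.52, 3.04, 3.04 and 2.92 on CAG42 and 2.90, 3.20, 3.13 and 3.12 on WT cerebellum arrays. The brainstem values were 3.21, 2.84, 3.14 and 2.87 on CAG42 and 2.85, 3.07, 2.99 and 3.09 on WT arrays. The liver values were 4.36, 3.84, 4.03 and 4.46 on CAG42 and 4.09, 4.40, 4.37 and 4.85 on WT arrays. The brain tissues overlapped (0.09, SE 0.15, adjusted p = 0.686 for WT cerebellum minus WT brainstem), and liver stood above both. WT cerebellum minus WT liver was −1.34 (adjusted p = 2.78e-08) and WT brainstem minus WT liver was −1.43 (adjusted p = 9.85e-09). The other probe sets of Ciita had group means between 2.7 and 3.16, where a level cannot be told from background with the values used here. Their differences were small: WT cerebellum minus WT brainstem was −0.28 (adjusted p = 0.0301) for 1447075_PM_at and 0.12 (adjusted p = 0.496) for 1421210_PM_at.

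Tissues were also compared on the CAG42 arrays. There 6 of the 13 probe sets were called lower in cerebellum than in brainstem, 12 lower in cerebellum than in liver and 11 lower in brainstem than in liver, with 27.9%, 36.5% and 33.8% of all probe sets called in that direction. Without WT liver replicates 1 and 3 all 13 probe sets were called in WT cerebellum minus WT liver, the added one being Ciita 1421210_PM_at (−0.49, adjusted p = 0.00107).

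None of the measured members differed between the genotypes by a called amount in any tissue. For CAG42 minus WT, 0 of the 13 probe sets passed the adjusted threshold in cerebellum, brainstem or liver, where 0.0444%, 0.0155% and 0.147% of all probe sets were called. At an unadjusted p under 0.05 there were 0, 0 and 1 of the 13. The values of both genotypes overlapped for every member probe set in every tissue, while 3.94%, 3.70% and 2.76% of all probe sets in the 3 tissues had no overlap. Of the 13 differences, 9 were above 0 in cerebellum, 3 in brainstem and 2 in liver, with medians of 0.09, −0.15 and −0.18 on the log2 scale beside −0.01 for all probe sets in each tissue. The direction in brainstem rested on 1 array, since without WT replicate 2 there were 12 of 13 above 0 with a median of 0.07, and all 4 class II genes changed sign, with 0 called. Without WT liver replicates 1 and 3, 2 of 13 were above 0 in liver with a median of −0.82. With 4 arrays against 4, the smallest p an exact permutation test can give is 0.0286.

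**Figure D2:**
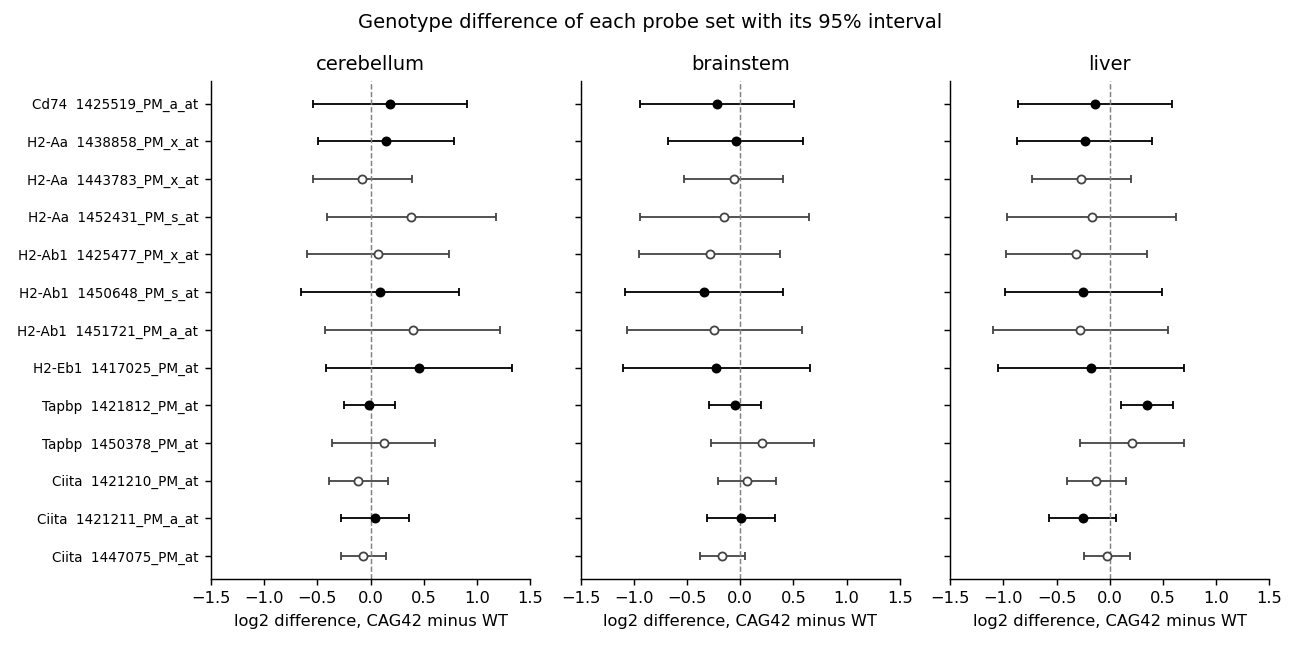
Log2 difference, CAG42 minus WT, of the 13 member probe sets in cerebellum, brainstem and liver, with 95% intervals from the limma model, filled for the brightest probe set of each gene. All intervals hold 0 except that of Tapbp 1421812_PM_at in liver, 0.11 to 0.59.

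For the invariant chain Cd74 the difference was 0.18 in cerebellum (95% interval −0.54 to 0.90), −0.22 in brainstem (−0.94 to 0.50) and −0.14 in liver (−0.87 to 0.58). H2-Aa differed by 0.14, −0.04 and −0.24 and H2-Ab1 by 0.09, −0.34 and −0.25 in cerebellum, brainstem and liver. The widest gap among brightest probe sets was that of H2-Eb1 in cerebellum, where CAG42 arrays averaged 5.93 ± 0.48 and WT arrays 5.47 ± 0.57 (SD, n = 4 each). Its difference of 0.46 had a 95% interval of −0.42 to 1.33 and an exact permutation p of 0.257. Over these 4 genes and 3 tissues the lowest end of an interval was −1.10 and the highest 1.33.

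Tapbp in liver was the only member probe set below an unadjusted p of 0.05. It averaged 9.67 ± 0.26 on CAG42 liver arrays and 9.32 ± 0.26 on WT liver arrays (SD, n = 4 each), a difference of 0.35 (SE 0.12, adjusted p = 0.331 by limma, exact permutation p = 0.143). The other Tapbp probe set differed by 0.21 (SE 0.24, adjusted p = 0.892). Without WT liver replicates 1 and 3 the Tapbp difference was 0.19 (adjusted p = 0.566). Ciita differed by −0.26 in liver (SE 0.15, adjusted p = 0.695), with 4.17 ± 0.29 on CAG42 and 4.43 ± 0.31 on WT arrays, and by 0.04 in cerebellum and 0.01 in brainstem.

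The difference between tissues in the effect of the knock-in was tested in the same model. It was called for 0 of the 13 probe sets for cerebellum against brainstem, cerebellum against liver and brainstem against liver, where 0.00222%, 0.00888% and 0.00888% of all probe sets were called. At an unadjusted p under 0.05 these counts were 0, 1 and 1.

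The liver comparison rests on which WT arrays enter. Without WT liver replicates 1 and 3, the CAG42 minus WT difference was −0.96 for Cd74 (adjusted p = 0.14), −0.80 for H2-Aa (adjusted p = 0.253), −1.02 for H2-Ab1 (adjusted p = 0.154) and −1.09 for H2-Eb1 (adjusted p = 0.199). One member probe set, H2-Aa 1443783_PM_x_at, was then called (−0.82, SE 0.18, adjusted p = 0.0246), among 640 called in all against 66 with every array. The 2 WT arrays left in that comparison are the ones with high class II, so that the arrays of low correlation and those of low class II are the same arrays and their parts cannot be told apart.

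The spread of the class II genes within a genotype differed between CAG42 and WT arrays, by single arrays in part. For all 8 class II probe sets the SD was larger among WT arrays in brainstem and again in liver, against 3 of 8 in cerebellum. The median SD of these probe sets was 0.30 on CAG42 and 0.91 on WT liver arrays, 0.26 on CAG42 and 0.78 on WT brainstem arrays, and 0.41 on CAG42 and 0.34 on WT cerebellum arrays. Without WT brainstem replicate 2 the WT SD was the larger for 5 of 8 probe sets, with medians of 0.26 on CAG42 and 0.23 on WT brainstem arrays. Without WT liver replicate 3 it was larger for 8 of 8 (WT median 0.86), and for the 2 WT liver arrays left without replicates 1 and 3 it was larger for 0 of 8 (WT median 0.12). The probe sets share arrays, and the difference in spread was not tested. In liver, WT replicates 2 and 4 were the 2 highest of all 8 arrays for each of the 8 probe sets, and WT replicate 3 was the lowest for each. In brainstem WT replicate 2 was the highest for each. In cerebellum CAG42 replicate 3 was the highest for 5 of 8 probe sets, and WT replicate 2 was the highest of the WT arrays for 7 of 8.

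The class II genes followed Cd74 from array to array within a tissue. Over the 8 arrays of liver, Pearson's r with Cd74 was 0.95 for H2-Aa (adjusted p = 0.00409), 0.95 for H2-Ab1 (adjusted p = 0.00248) and 0.98 for H2-Eb1 (adjusted p = 0.00223), by exact permutation tests, two-sided, with Benjamini-Hochberg adjustment over 15 relations. In brainstem r was 0.94, 0.99 and 0.98 for the same genes (adjusted p = 0.0242, 0.00223 and 0.00521, exact permutation). In cerebellum r was 0.70, 0.77 and 0.81 (adjusted p = 0.0857, 0.0437 and 0.0390, exact permutation). Of the 9 relations among class II genes 8 passed by r and 6 by Spearman's rho. Taking deviations from the mean of each genotype left a positive r, such as 0.68 for H2-Aa in cerebellum.

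**Figure D3:**
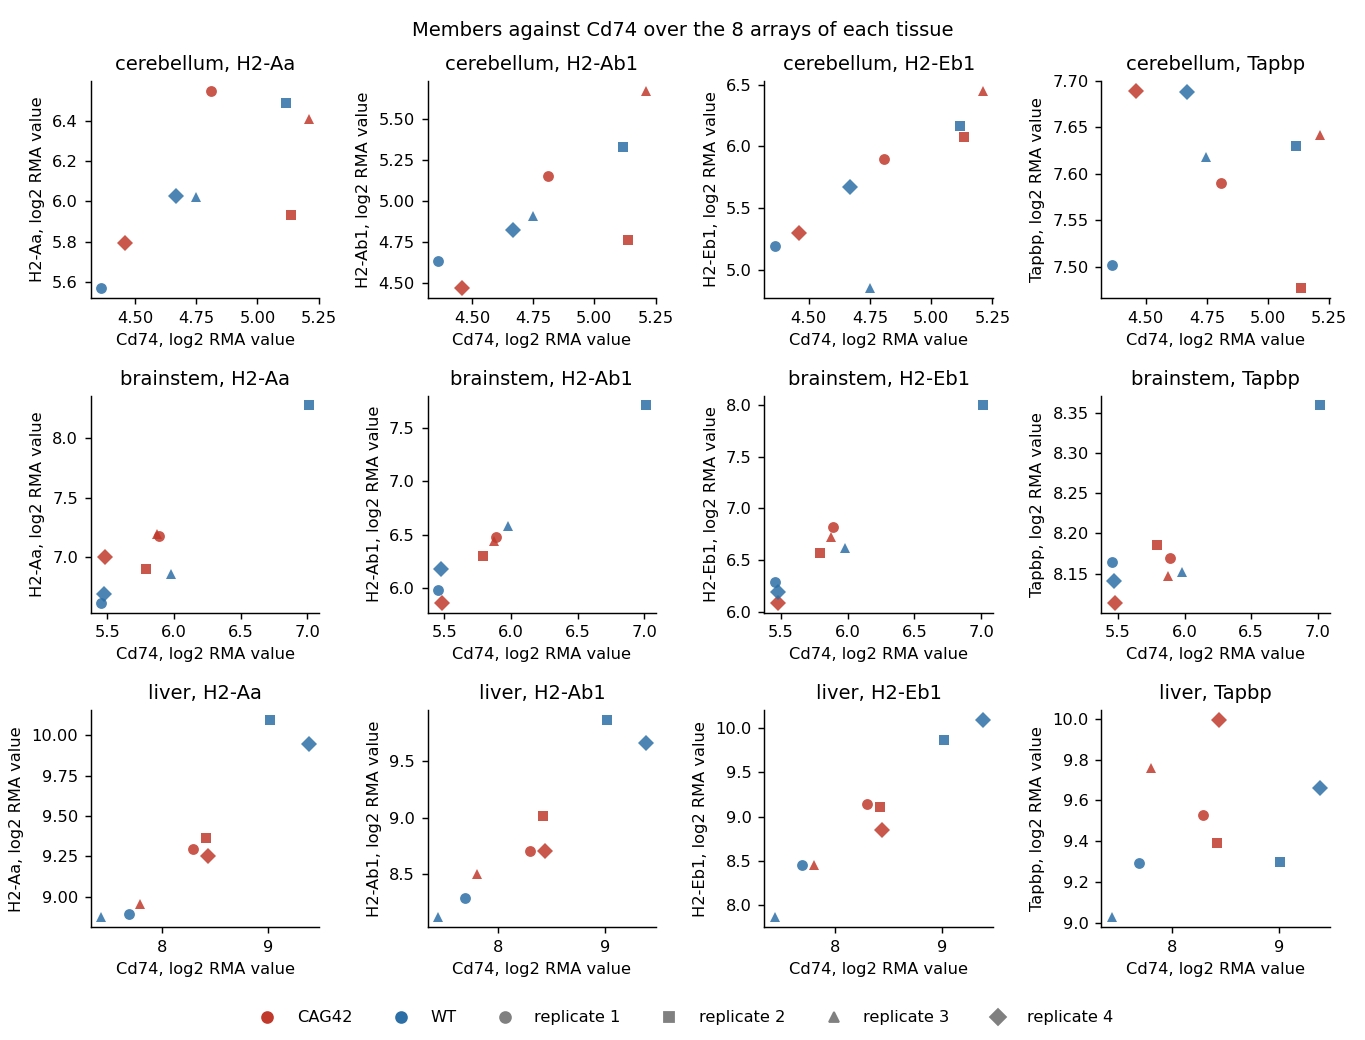
Log2 RMA values of H2-Aa, H2-Ab1, H2-Eb1 and Tapbp against those of Cd74 over the 8 arrays of each tissue, CAG42 in red and WT in blue, with a symbol for each replicate number. The class II genes lie along a rising line in brainstem and liver, with WT brainstem replicate 2 alone at the top right, while Tapbp shows no such line in cerebellum or liver.

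Part of this rests on single arrays. Brainstem r without WT replicate 2 was 0.61 for H2-Aa, 0.93 for H2-Ab1 and 0.92 for H2-Eb1. Without the 2 arrays farthest from the median of Cd74, r in liver was 0.96, 0.93 and 0.95 for H2-Aa, H2-Ab1 and H2-Eb1, in brainstem 0.46, 0.91 and 0.93, and in cerebellum 0.45, 0.62 and 0.70. With 6 arrays each, 3 of 15 relations then passed.

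Tapbp and Ciita kept to Cd74 less closely. Tapbp had r = 0.92 with Cd74 in brainstem (adjusted p = 0.0437, exact permutation), which fell to 0.42 without WT replicate 2, and whose rho was 0.50. In cerebellum its r was −0.09 and in liver 0.34. Ciita, dim as it was, had r = 0.32 in cerebellum, 0.35 in brainstem and 0.58 in liver, and none of the 3 passed.

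Genes outside the members were ranked by their likeness to the mean of Cd74, H2-Aa, H2-Ab1 and H2-Eb1, as deviations from the mean of tissue and genotype, over 17091 genes. Over all 24 arrays the 5 most alike were H2-DMb2, a beta chain of the class II peptide loader (r = 0.83), Cxcl2, a neutrophil chemokine (0.78), Psme1, a proteasome activator subunit (0.75), Vegfb (0.74) and Bdh2 (0.74). In liver alone they were Cacna2d1, H2-DMb2, Gimap4, Slc24a3 and Cyp2b9, with r of 0.95 to 0.96. In brainstem they were Emp3, Wipi1, Selenbp1, Fstl3 and Plekha4, with r of 0.98 to 0.99. In cerebellum they were Snai1, Tent4b, Mc3r, Slc2a13 and Slc25a40, with r of 0.95 to 0.99. With 8 arrays and so many genes, values this high are a description of rank, and the arrays share their preparation and any mouse they come from.

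H2-DMb2, chosen for its likeness to the class II mean, is given array by array as a description. It had r = 0.96 to that mean in liver, 0.93 in brainstem and −0.12 in cerebellum. In liver it was 5.81, 6.17, 5.85 and 6.07 on CAG42 and 5.66, 7.0, 5.0 and 6.76 on WT arrays. In brainstem it was 5.40, 5.29, 5.30 and 5.19 on CAG42 and 5.0, 6.02, 5.06 and 5.25 on WT arrays. WT replicates 2 and 4 were the highest in liver and WT replicate 2 in brainstem, where WT replicates 1 and 3 were the lowest. In cerebellum it was 3.98 to 4.18 on CAG42 and 4.08 to 4.36 on WT arrays. H2-DMa, its alpha chain partner, was 5.82, 5.88, 5.92 and 6.34 on CAG42 and 5.42, 6.90, 4.96 and 6.80 on WT liver arrays, with r = 0.93 to the class II mean over the 8 liver arrays and 0.12 in cerebellum.

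The rest of the class II pathway was described from a list of 12 genes for peptide loading, lysosomal cleavage and co-stimulation, all measured. Between WT cerebellum and WT brainstem 6 of 12 were called lower in cerebellum, among them H2-DMa (−1.40), H2-DMb1 (−0.69) and H2-DMb2 (−1.11), and 0 were higher. Against liver, 8 were called lower and 1 higher in WT cerebellum, and 6 lower and 3 higher in WT brainstem. Over all probe sets, 28.2%, 37.3% and 34.3% were called lower in these 3 comparisons and 18.8%, 44.4% and 46.5% higher. The 3 higher in brainstem were Ctss, the protease that trims the invariant chain (1.22, adjusted p = 8.33e-05), Lgmn, a lysosomal endopeptidase (1.24, adjusted p = 6.71e-07), and Marchf1, a ubiquitin ligase that removes class II from the surface (3.03, adjusted p = 8.45e-14). Thus these 3 genes ran against the order of the class II chains between brainstem and liver. Marchf1 was 6.53, 6.77, 6.87 and 6.82 on WT brainstem arrays and 3.53, 3.75, 3.38 and 4.22 on WT liver arrays. H2-Ea, the I-E alpha chain, which is not expressed in the b haplotype of C57BL/6 mice, was dim on all arrays, between 3.34 and 4.03. The median difference of the list was −0.43, −1.52 and −0.68 for cerebellum minus brainstem, cerebellum minus liver and brainstem minus liver in WT mice, beside −0.14, 0.13 and 0.35 for all genes by their brightest probe set. For CAG42 minus WT 0 of the 12 genes were called in any tissue. Without WT liver replicates 1 and 3, 2 of 12 were called lower in CAG42 liver, H2-DMa and H2-DMb2. The WT arrays left there are the ones with high class II, and they also hold the highest WT liver values of both genes. As for the members, the choice of arrays and a difference by genotype cannot be told apart. The number called over all probe sets without these arrays is given above.

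**Figure D4:**
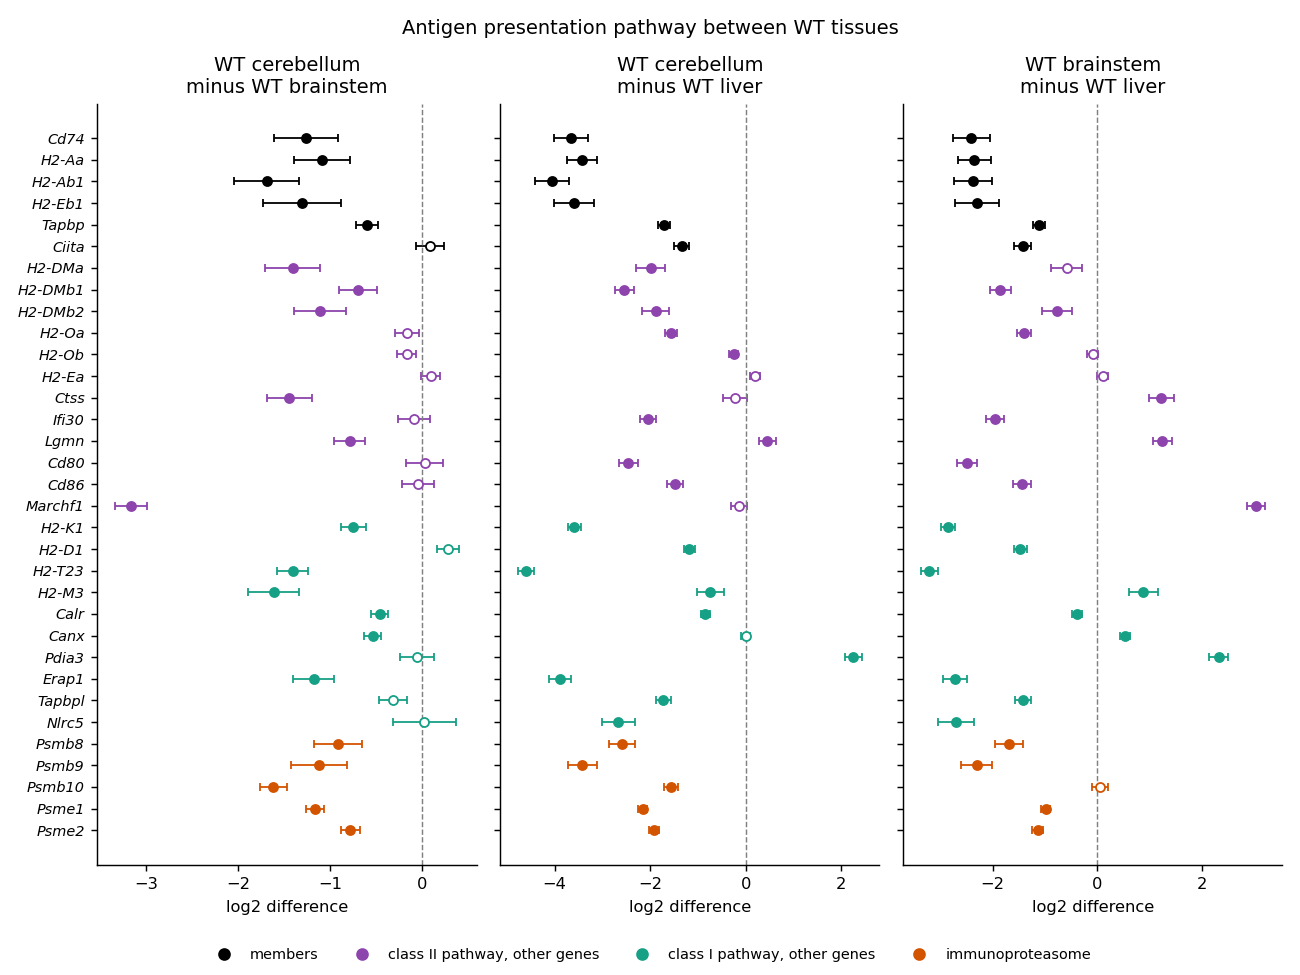
Log2 differences with SE between WT tissues for the 6 measured members and the other genes of the class II and class I pathways and the immunoproteasome, filled where limma's adjusted p was under 0.05. Members lie left of 0 in all 3 comparisons except Ciita in cerebellum minus brainstem (0.09), while Ctss, Lgmn and Marchf1 lie right of 0 for brainstem minus liver.

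Most of the factors that assemble on the X and Y boxes were higher in the brain than in liver. Of Rfx5, Rfxap, Rfxank, Nfya, Nfyb, Nfyc and Creb1, 5 were called higher and 1 lower in WT cerebellum than in WT liver, where 44.4% of all probe sets were called higher. In WT brainstem minus WT liver 6 were called higher and 0 lower, beside 46.5% of all probe sets called higher. The median differences of the 7 genes were 1.65 and 1.55, beside 0.13 and 0.35 for all genes by their brightest probe set. Rfx5, a subunit of the X box complex, was higher than in liver by 1.65 in cerebellum and by 1.55 in brainstem. Creb1 was higher by 2.34 and 1.88, and Nfyc, a subunit of the Y box factor, by 2.15 and 1.56. Rfxank was the exception (−0.45 for cerebellum minus liver, adjusted p = 0.00701). Between the brain tissues 3 of 7 were called higher in WT cerebellum than in WT brainstem and 0 lower, beside 18.8% of all probe sets called higher. The order opposite to that of the class II genes was thus called in full for 3 of 7, Nfya, Nfyc and Creb1. The share of all probe sets called in that full order is not given here. For CAG42 minus WT 0 of 7 were called in any tissue.

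The order cerebellum, brainstem, liver from low to high was called in full for 4 of 10 other class I genes (H2-K1, H2-T23, Calr and Erap1) and for 4 of 5 immunoproteasome genes. The share of all probe sets called in that full order is not given here, so these 2 counts have no background beside them. Of the 10 class I genes, 6 were called lower and 0 higher in WT cerebellum than in WT brainstem, and 8 lower and 1 higher in WT cerebellum than in WT liver. In WT brainstem minus WT liver 7 were called lower and 3 higher. The shares of all probe sets called lower in these 3 comparisons were 28.2%, 37.3% and 34.3%. H2-K1, a class I heavy chain, differed by −3.59, H2-T23 by −4.61, the peptide trimming enzyme Erap1 by −3.89 and Nlrc5, the co-activator of class I genes, by −2.66 for WT cerebellum minus WT liver. The one called higher was Pdia3 (2.26), a disulfide isomerase of the loading complex. Those called higher in brainstem than in liver were Pdia3 (2.31), the class I heavy chain H2-M3 (0.88) and the chaperone Canx (0.53). All 5 immunoproteasome genes were called lower in WT cerebellum than in WT brainstem and in WT liver, and 4 of 5 lower in WT brainstem than in WT liver, with Psmb10 at 0.05 (adjusted p = 0.761). For CAG42 minus WT, 0 of 10 and 0 of 5 were called in any tissue. In liver their medians were 0.14 and 0.32 beside 0.01 for all genes. Without WT liver replicate 3, an array of low correlation, they were 0.06 and 0.13 beside −0.01, and without replicates 1 and 3 they were 0.09 and 0.03 beside 0.02. With all arrays the lowest p values were those of Psme1 (0.32, SE 0.09, adjusted p = 0.239) and H2-T23 (0.52, SE 0.17, adjusted p = 0.294). H2-T23 was 11.50, 11.63, 11.64 and 12.01 on CAG42 and 10.93, 11.22, 11.01 and 11.51 on WT liver arrays, so that the lowest CAG42 array lay just below the highest WT array.

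Interferon gamma induces Ciita in cells that do not make it at rest. Of the 8 genes of its signalling examined here, 0 were called for CAG42 minus WT in any tissue. Its target factor Irf1 was lower in both brain tissues than in liver, by −2.85 in WT cerebellum and −2.40 in WT brainstem. Irf8, a factor of myeloid cells, gave −1.20 for WT cerebellum minus WT brainstem (adjusted p = 3.31e-05). Jak2 and Jak1 ran the other way, with 1.54 and 0.41 for WT cerebellum minus WT liver. Of the 8 genes, 2 were called higher and 4 lower in that comparison, beside 44.4% and 37.3% of all probe sets. In WT brainstem minus WT liver 3 were called higher (Jak2, Jak1 and Ifngr2) and 3 lower, beside 46.5% and 34.3% of all probe sets.

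Of 14 genes stimulated by interferon 11 were measured, and 2 were called higher in CAG42 liver while the members were not. Over all probe sets 0.147% were called in that comparison. Irf7, a factor of interferon induction, was 6.73, 7.70, 8.85 and 8.40 on CAG42 and 6.21, 6.30, 4.72 and 6.96 on WT liver arrays (1.87, SE 0.38, adjusted p = 0.0410). Usp18, which removes ISG15 from proteins, was 6.30, 7.22, 8.28 and 7.5 on CAG42 and 5.34, 5.48, 3.77 and 5.59 on WT liver arrays (2.28, SE 0.41, adjusted p = 0.0139). The groups did not overlap for Usp18 and overlapped for Irf7. WT liver replicate 3, an array of low correlation, was the lowest for both. Without this array the difference was 1.43 for Irf7 (adjusted p = 0.0983) and 1.85 for Usp18 (adjusted p = 0.0480), and without WT replicates 1 and 3 it was 1.29 (adjusted p = 0.0879) and 1.79 (adjusted p = 0.0410), so that the call was lost for Irf7. The list had a median of 0.59 in liver beside 0.01 for all genes, 0.41 without WT replicate 3 and 0.47 without WT replicates 1 and 3, and 0 of 11 were called in cerebellum or brainstem.

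**Figure D5:**
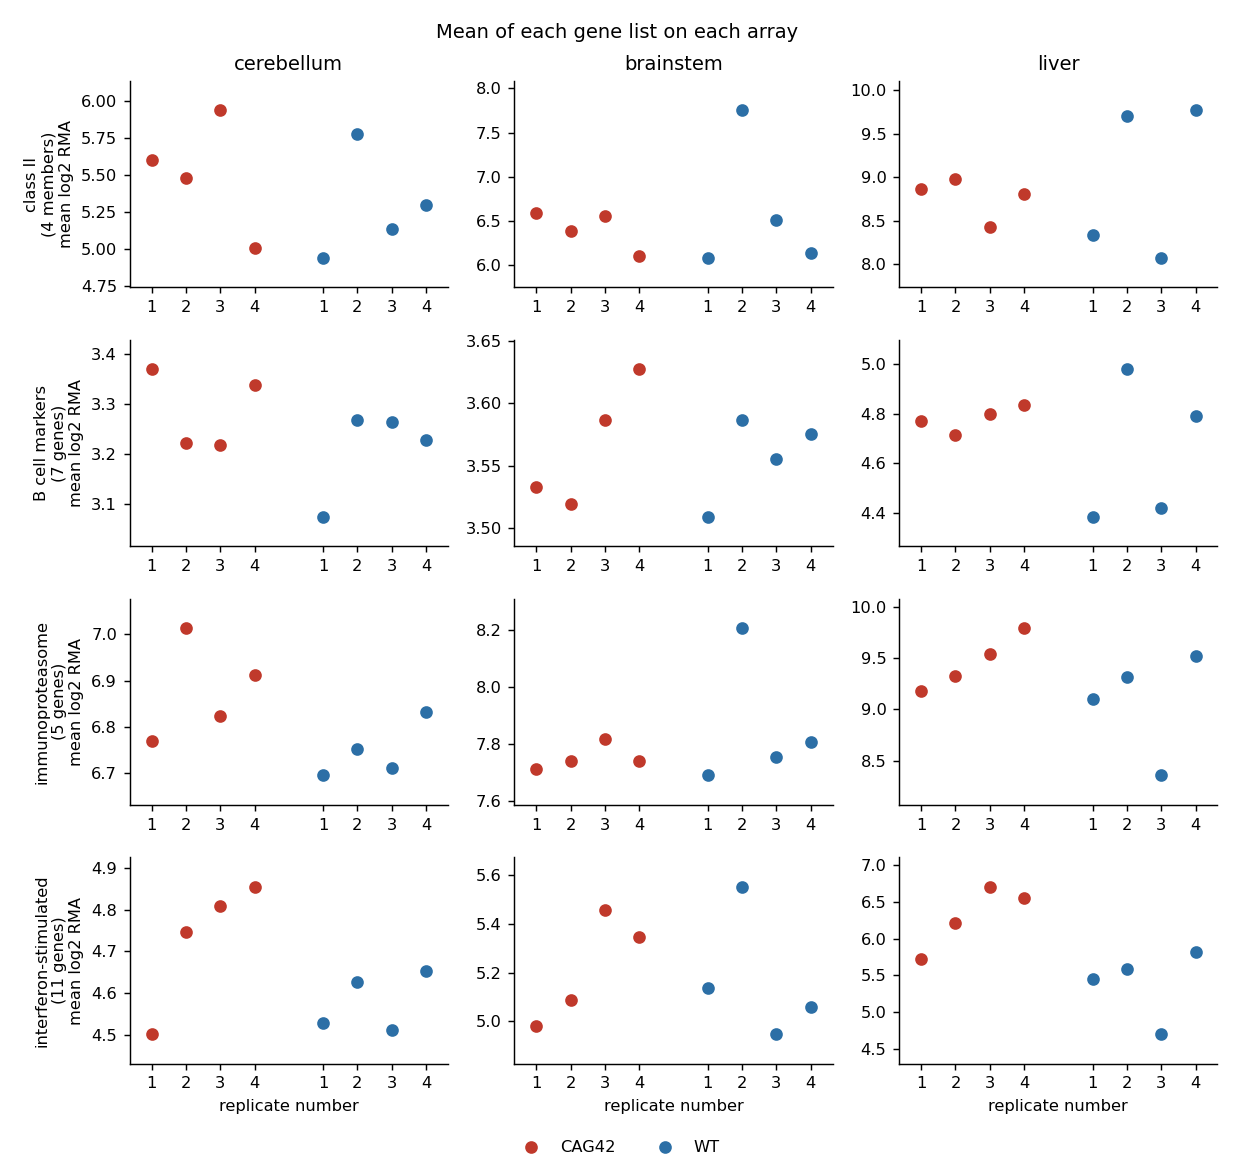
Mean log2 RMA value on each array of the 4 class II members and of 3 gene lists (B cell markers, immunoproteasome, interferon-stimulated genes), by tissue and replicate number, with CAG42 in red left of WT in blue. WT liver replicates 1 and 3 are low in class II and in B cell markers, and WT brainstem replicate 2 is high in class II, immunoproteasome and interferon-stimulated genes.

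Markers of cells that carry class II were set beside these values. The mean of the 4 class II genes in liver was 8.86, 8.98, 8.43 and 8.81 on CAG42 and 8.33, 9.71, 8.07 and 9.77 on WT arrays. The mean of 7 B cell markers was 4.77, 4.71, 4.80 and 4.84 on CAG42 and 4.39, 4.98, 4.42 and 4.79 on WT liver arrays, so that WT replicates 1 and 3 were the lowest in both. All 7 were called lower in WT cerebellum than in WT liver and 5 of 7 lower in WT brainstem, beside 37.3% and 34.3% of all probe sets. The defining gene Ms4a1 (CD20) averaged 5.93 over liver and 2.96 and 3.18 over cerebellum and brainstem, at the low end of the scale. Cd79a and Cd79b averaged 5.24 and 5.47 in liver, 3.45 and 3.15 in cerebellum and 3.88 and 3.10 in brainstem. Pax5, Cr2 and Ighm were at the low end of the scale in liver too, with means of 3.23, 3.13 and 3.22. Blnk averaged 4.43 in cerebellum, 6.10 in brainstem and 6.76 in liver. Means of the 6 Kupffer cell markers ran from 7.36 to 8.93 on CAG42 and from 7.52 to 8.09 on WT liver arrays. The mean of 6 border and tissue macrophage markers had the order of the class II genes. In cerebellum it was 3.60 to 3.77 on CAG42 and 3.58 to 3.82 on WT arrays. Brainstem arrays gave 4.01 to 4.32 on CAG42 and 4.13 to 4.51 on WT. Liver arrays gave 5.37 to 5.92 on CAG42 and 5.48 to 6.04 on WT. Of these markers F13a1 went the other way between brainstem (5.63) and liver (3.38). For CAG42 minus WT in liver 1 of these 6 markers was called lower and 0 higher, where 0.147% of all probe sets were called. No B cell, Kupffer cell or dendritic cell marker was called in that comparison. Of 8 dendritic cell markers 6 were measured, and their mean had the reverse order of tissues, with 3.59 to 3.73 on CAG42 and 3.57 to 3.63 on WT liver arrays, 4.36 to 4.41 on CAG42 and 4.41 to 4.49 on WT brainstem arrays, and 4.66 to 4.80 on CAG42 and 4.75 to 4.81 on WT cerebellum arrays. The members furthest above their liver level were Flt3 and Zbtb46, with means over the arrays of a tissue of 7.56 and 7.62 in cerebellum and 3.97 and 3.26 in liver. The dendritic cell marker Itgax averaged 3.69 in cerebellum, 3.79 in brainstem and 3.87 in liver, and Xcr1 lay between 2.81 and 2.89, at the low end of the scale. Batf3 (3.64, 4.25 and 4.53) and Cd209a (3.11, 3.17 and 3.32) rose in the same order of tissues as Itgax. Of the 6, 2 were called higher and 2 lower in WT cerebellum than in WT liver, beside 44.4% and 37.3% of all probe sets. In WT brainstem minus WT liver 2 were called higher and 0 lower, beside 46.5% and 34.3% of all probe sets. The part of B cells, Kupffer cells, other macrophages or dendritic cells in the class II levels was not tested.

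In brainstem, WT replicate 2 had a class II mean of 7.75, against 6.11 to 6.59 on CAG42 arrays and 6.08 to 6.51 on the other WT arrays. On that array the immunoproteasome mean was 8.21, against 7.69 to 7.82 on all other brainstem arrays of both genotypes. Its mean of interferon-stimulated genes was 5.55, the highest of its tissue, with CAG42 arrays at 4.98 to 5.46. The 8 microglia markers were not set apart there, with means of 7.41 to 7.57 on CAG42 and 7.35 to 7.51 on WT brainstem arrays. The 7 B cell markers ran from 3.52 to 3.63 on CAG42 and from 3.51 to 3.59 on WT brainstem arrays. In cerebellum the microglia mean was lower, 6.02 to 6.29 on CAG42 and 5.93 to 6.11 on WT arrays, as were the class II genes. All 8 microglia markers were called lower in WT cerebellum than in WT brainstem, as were 7 of 9 choroid plexus and 4 of 5 endothelium markers. Of all probe sets 28.2% were called lower. The choroid plexus mean ran from 5.17 to 6.98 on WT cerebellum arrays and from 6.75 to 7.97 on WT brainstem arrays. The part of microglia, choroid plexus or endothelium in the order of the 2 brain tissues was not tested.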

How the data were processed

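Per the labels and the methods, total RNA from 3 tissues was measured on Affymetrix mouse expression arrays. The preparation is described differently by the labels (RNeasy Midi kit, standard Affymetrix protocol) and by the methods (3′ IVT Express kit), and the probe set names are those of a perfect-match array. The authors deposited log2 values from RMA; R 2.7.0 is credited to the submitters' notes on processing. RMA places all arrays on one distribution, so that a shift of all genes would not be seen. Background signals and scan dates were not used here, and the number of arrays limits the precision. The deposited table held 45141 probe sets, of which 104 controls were left out, and 0 columns of samples outside the series. The platform annotation gave 28898 probe sets 1 gene, 551 several and 15588 none.

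Limma 3.58.1 in R 4.3.3 fitted a mean for each of the 6 groups to all 24 arrays, with empirical Bayes moderation and Benjamini-Hochberg adjustment over 45037 probe sets within each contrast. Differences are CAG42 minus WT, or first tissue minus second. Correlations, promoter searches and figures used Python 3.11.15, NumPy 2.4.6, SciPy 1.17.1 and matplotlib 3.10.9. The fit was tested on simulated data before use. The members and gene lists were chosen with earlier results of these data known. The genes named are all probe sets of the members, of each pathway list the called genes and the 3 of lowest p in a genotype contrast, and the 5 of highest likeness over all arrays and in each tissue; further genes were chosen after their values were seen. A gene of a list stands by its brightest probe set.

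Replicate numbers were checked for pairing. Cerebellum and brainstem arrays that share genotype and number deviated together from their group means (r = 0.224 to 0.375 over 8 pairs). These numbers were taken to pair both brain tissues only in the alternatives with a block of genotype and number. The model behind the tissue differences given in the Results holds no pairing. For cerebellum and liver r was 0.0775 to 0.285 and for brainstem and liver 0.0417 to 0.161, not above 0.1 in every pair. In all 3 pairs of tissues 8 of 8 arrays correlated best with their own number. Alternatives were each tissue fitted alone, fixed and random replicate blocks, array weights, quantile normalization within tissue, a filter on dim probe sets (29600 kept), trended and robust moderation, single arrays left out, probe sets averaged per gene, and, added after seeing the data, CAG42 tissues, both WT liver arrays of low correlation or replicate 3 of them left out, and WT brainstem replicate 2 left out.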

Additional observations from a re-analysis of the deposited data

Results flagged for a closer look

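For each of the 13 probe sets and 6 groups, 78 groups of 4 arrays in all, the highest and lowest array were set against Dixon's critical value, which chance exceeds in about 1 in 20 groups. In 6 groups an array lay beyond it. On WT brainstem replicate 2, H2-Aa (1438858_PM_x_at) was 8.28 while the other 3 WT arrays lay at 6.61 to 6.86, H2-Ab1 (1451721_PM_a_at) was 7.0 against 5.26 to 5.45, and Tapbp (1421812_PM_at) was 8.36 against 8.14 to 8.16. In CAG42 liver, Tapbp (1450378_PM_at) was 5.17 on replicate 4 against 5.68 to 5.73. In CAG42 cerebellum, Ciita (1421210_PM_at) was 2.96 on replicate 4 against 2.73 to 2.76. In WT liver, Ciita (1447075_PM_at) was 3.20 on replicate 4 against 3.05 to 3.07. Thus 3 of the 6 fell on 1 array, WT brainstem replicate 2, in probe sets that are not independent of each other.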

How the results depend on the processing

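Of the tests across all probe sets, counts of called members stayed within 1.5 times of the values given under every alternative but 1. With both WT liver arrays of low correlation left out, 1 member probe set in place of 0 was called for CAG42 minus WT in liver. Leaving out single arrays gave 0 calls for CAG42 minus WT in every tissue and 0 for the differences between tissues, 7 to 8 for WT cerebellum minus WT brainstem, 12 to 13 for WT cerebellum minus WT liver and 11 to 12 for WT brainstem minus WT liver. Of these differences by genotype, 122 kept their sign and 22 changed it, none of the 22 with a call. The ranges for CAG42 minus WT were, for Cd74, −0.40 to 0.12 in brainstem and −0.46 to 0.19 in liver. For H2-Aa they were −0.0081 to 0.30 in cerebellum and −0.21 to 0.35 in brainstem. For H2-Ab1 they were −0.13 to 0.27 in cerebellum, −0.55 to 0.024 in brainstem and −0.53 to 0.043 in liver. For H2-Eb1 they were −0.42 to 0.19 in brainstem and −0.58 to 0.16 in liver. For Tapbp they were −0.046 to 0.031 in cerebellum and −0.071 to 0.0018 in brainstem, and for Ciita −0.087 to 0.11 in cerebellum and −0.053 to 0.070 in brainstem. Array weights turned Tapbp in cerebellum to 0.00029. The mean of all probe sets of a gene turned Tapbp to 0.056 in cerebellum and 0.079 in brainstem, and Ciita to −0.046 in cerebellum and −0.031 in brainstem. With the 2 arrays farthest from the Cd74 median left out, 3 of 15 relations with Cd74 passed in place of 9, on fewer arrays each, and 6 passed without WT brainstem replicate 2. Without the 2 farthest arrays, r of Tapbp in liver turned to −0.13. Without both WT liver arrays of low correlation that r was −0.29. Where not stated otherwise, the cause of a change was not tested.

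With the replicate number as a block, 0 members were called for CAG42 minus WT in each tissue. With genotype and number as a block, 8, 13 and 12 were called for WT cerebellum minus brainstem, cerebellum minus liver and brainstem minus liver, and a random block gave 8, 12 and 12 (consensus correlation 0.0641). Same-numbered CAG42 and WT arrays deviated from their group means with r of −0.299 to 0.214 within a tissue, so the number was not taken to pair the genotypes. The block changed no other call of a member.

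A filter on dim probe sets kept 11 of the 13 member probe sets. Signal limits the dimmest of them, such as those of Ciita in the brain, and 4 arrays a group limit the precision of the rest.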
